A study of Mus musculus with 12 samples.

Results

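The 9 genes examined here mark the luminal cells of the mammary gland and the milk that these cells make, and they were taken by symbol as 9 of the 55401 genes in the expression table. They are the lineage transcription factors Elf5, Gata3 and Foxa1, the hormone receptors Esr1, Pgr and Prlr, and the milk proteins Csn3, Wap and Lalba. RNA was sequenced from 12 mouse tumours labelled as orthotopic oral tumour tissue, 3 in each of 4 treatment groups. By their labels all 12 grew from MTC-Q1 cells, a mouse oral cancer line of which the study used a luciferase-expressing subline (Q1-2), and all were grown in C57BL/6 mice and treated from a volume of 100 mm3. Mice of the Ctrl-IgG group were given a control IgG, which the label names as a control isotype (IgG1-Fc). Those of the aCSF1R group were given an antibody that binds CSF1R, a growth factor receptor of macrophages. The IL-10-Fc group was given interleukin-10 joined to Fc, and the BF10 group a molecule in which interleukin-10 is carried by the antibody to CSF1R. The labels give no age for the animals. The same cell line is named for every tumour, and the labels do not say whether the 3 libraries of a group came from separate animals, so p-values measure the spread between these libraries, which may be technical. Because 2 of the 4 treatments contain interleukin-10, the genes were also compared between the 6 libraries with and the 6 without it.

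In the mammary gland, luminal cells line the ducts and alveoli. GATA3 and FOXA1 act with the oestrogen receptor in hormone-sensing cells, whereas ELF5 sets up the alveolar cells that secrete milk. Prolactin acts through its receptor, the kinase JAK2 and the factor STAT5 to switch on the casein and whey protein genes. Most of these genes are also used elsewhere: Gata3 in T cells, type 2 innate lymphocytes and keratinocytes, Esr1 and Pgr in stromal cells, and Prlr in several tissues including fat. Milk protein genes are the most restricted of the 9.

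Before the genes are described, some facts of the libraries bear on every comparison that crosses from the treatments without to those with interleukin-10. H2-Ea, an MHC class II gene that C57BL/6 mice do not transcribe, was at most 0.27 FPKM (fragments per kilobase of transcript, scaled to the sequenced fragments of the library and thus comparable between genes) in the 6 libraries without interleukin-10 and 552.78 to 1726.81 FPKM in the 6 with it. Xist, the non-coding RNA that silences an X chromosome in female cells, was at most 0.04 FPKM in the former and 17.09 to 30.68 FPKM in the latter. Eif2s3y, on the Y chromosome, was 4.23 to 11.33 FPKM without interleukin-10 and at most 0.05 FPKM with it, except in BF10 replicate 3, which held 3.29 FPKM. These values go against the strain that the labels give for the 6 libraries with interleukin-10. The methods of the study also describe a mammary carcinoma line, 4T1, in BALB/c mice, whose MHC haplotype transcribes H2-Ea. The origin of the libraries was not tested, and treatment with interleukin-10 and whatever else separates the 2 sets of 6 cannot be told apart here. Groups are named below as their labels name them. In 4 libraries the FPKM sum was 819001 to 976950, with 6.57% to 9.04% of it from mitochondrial transcripts, against 637596 to 701275 and 2.99% to 3.61% in the other 8. These libraries of high sum were replicate 2 of Ctrl-IgG, replicate 1 of BF10, and replicates 1 and 2 of IL-10-Fc. Depth relative to Ctrl-IgG replicate 1, read from the most common ratio between low values of short genes, was estimated at 0.946 to 1.39. The estimate is rough because few genes shared that ratio, 16 of 319 in IL-10-Fc replicate 2 and 32 of 408 in BF10 replicate 2. Keratinocyte genes, which mark oral epithelium, summed to 1410 to 1680 FPKM in Ctrl-IgG replicate 3 and aCSF1R replicates 1 and 2 and to at most 34.6 FPKM in the other 9 libraries.

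RefSeq gives a promoter for 8 of the 9 genes on GRCm38.p6. Csn3 was not among them. Promoters are shown for Pgr and Prlr, the receptors whose level was near 0 without interleukin-10, and for the milk gene Wap, which was at 0 throughout. Each is the 250 bases that lie before a start of the gene, read 5′ to 3′ on the strand of the gene, with motif matches in capitals. Pgr lies on the plus strand at chr9:8899583-8899832, Prlr on the plus strand at chr15:10176988-10177237 and Wap on the minus strand at chr11:6638650-6638899.
Pgr: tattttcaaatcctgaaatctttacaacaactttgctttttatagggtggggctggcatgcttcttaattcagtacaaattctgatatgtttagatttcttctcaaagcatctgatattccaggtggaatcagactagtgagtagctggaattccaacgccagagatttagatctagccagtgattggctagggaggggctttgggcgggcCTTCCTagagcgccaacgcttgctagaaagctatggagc
Prlr: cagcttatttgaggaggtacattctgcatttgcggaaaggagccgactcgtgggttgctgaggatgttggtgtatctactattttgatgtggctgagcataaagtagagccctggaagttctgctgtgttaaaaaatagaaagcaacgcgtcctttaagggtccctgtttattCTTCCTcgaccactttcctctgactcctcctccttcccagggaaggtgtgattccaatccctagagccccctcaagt
Wap: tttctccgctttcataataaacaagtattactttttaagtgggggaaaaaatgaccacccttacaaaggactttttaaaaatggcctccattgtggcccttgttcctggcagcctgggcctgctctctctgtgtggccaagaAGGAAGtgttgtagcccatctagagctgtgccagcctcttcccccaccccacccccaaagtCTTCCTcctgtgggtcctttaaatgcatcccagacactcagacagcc
In these letters 6 motifs were searched on both strands: TTC and GAA with 3 bases between them for STAT5, AGATAA for GATA factors, TGTTTAC for FOXA factors, AGGAAG for ETS factors such as ELF5, and the paired half-sites of the oestrogen and progesterone receptors (GGTCA and TGACC, or AGAACA and TGTTCT, each pair 3 bases apart). The capitals mark an ETS match at 39 bases before the start of Pgr, an ETS match at 77 bases before this start of Prlr, and ETS matches at 108 and 47 bases before the start of Wap. RefSeq lists further starts of Prlr. The promoter from 10293401 had an ETS match 67 bases before its start, and that from 10223656 a FOXA match at 215 and a STAT5 match at 110 bases, but the bases that follow this last start were found in no Prlr transcript of GENCODE M21, unlike those after the other starts named here. Of 32851 promoters of this length, 7.02% held the STAT5 motif, 3.17% the FOXA motif, 9.99% the GATA motif and 29.5% the ETS motif. The receptor motifs were in 0.0639% (oestrogen receptor) and 0.00913% (progesterone receptor), and in none of the promoters of the 8 genes. A match is a run of letters and not a measured site.

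**Figure D1:**
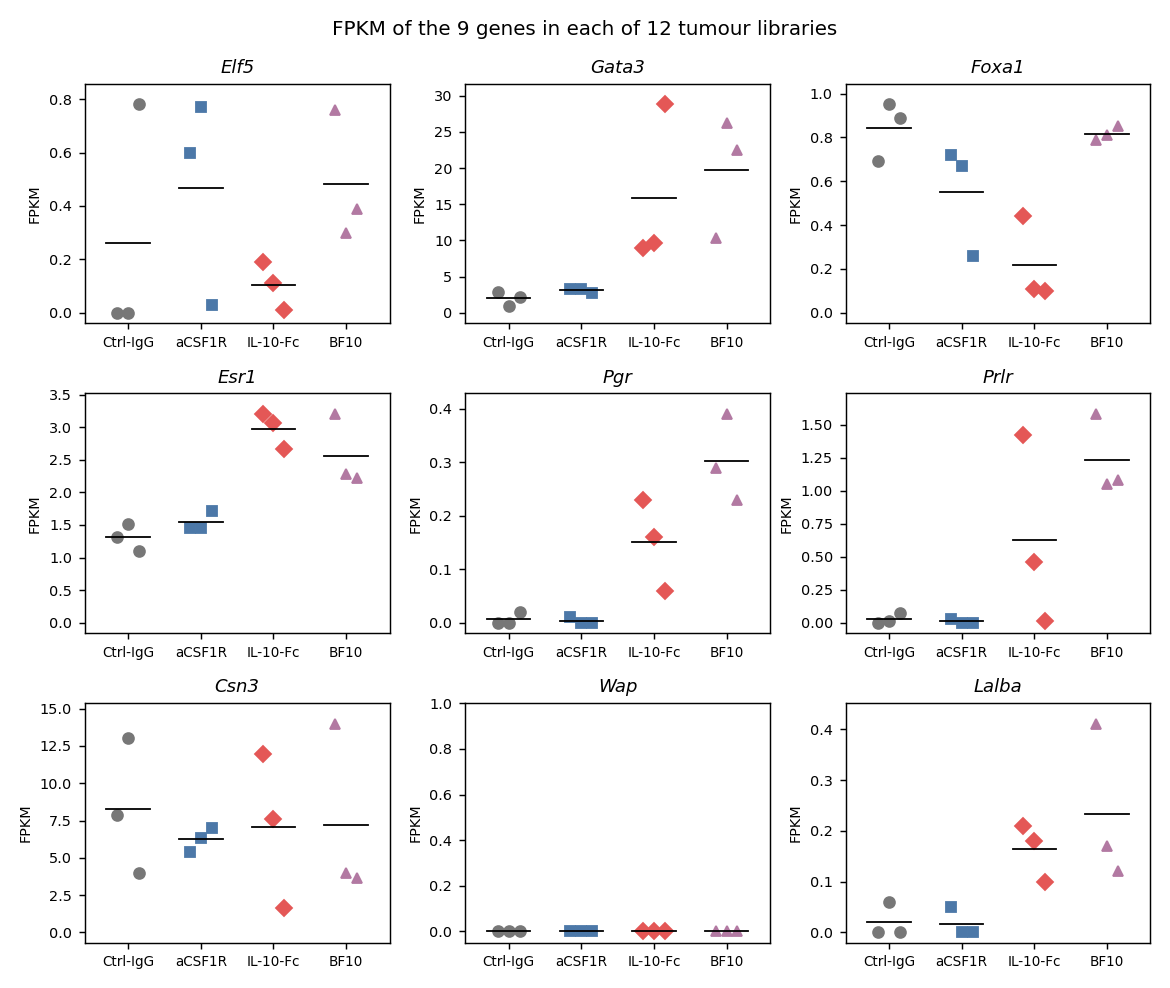
Level of each of the 9 genes (y axis, FPKM, a scale per panel) in each of the 12 libraries, by treatment group on the x axis, with a point per library and a line at the mean of 3. Gata3, Esr1, Pgr and Lalba have all 6 libraries with interleukin-10 above all 6 without it, Csn3 is spread over every group, and Wap lies at 0. Such a separation held for 9.73% of genes that reached 1 FPKM in at least 3 libraries. It held for 2.82% of those that did not but were above 0 in at least 3.

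The 4 genes Gata3, Esr1, Prlr and Csn3 reached 1 FPKM in at least 3 libraries and entered the fit, limma on log2(FPKM + 1) over 15813 genes, in which a call needed both a Benjamini-Hochberg adjusted p below 0.05 and a change of at least 1.5-fold. Prlr passed this filter only through the libraries with interleukin-10, where it was high. Its own calls across interleukin-10 and counts over the members in the fit therefore carry no weight of their own. Elf5, Foxa1, Pgr, Lalba and Wap stayed under the filter. Of these, the 4 above 0 in at least 3 libraries were compared with a two-sided exact permutation test of the 6 libraries with against the 6 without interleukin-10, whose p cannot go below 0.00216. These p-values were not adjusted over the 4 genes. Pgr and Lalba were each above 0 in 2 libraries without interleukin-10 and in all 6 with it. They were thus tested only through the libraries where they were high, and their p-values carry no weight of their own.

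Among the lineage factors, Gata3 rose with interleukin-10 whereas Elf5 and Foxa1 stayed below 1 FPKM in all 12 libraries. Gata3 (ENSMUSG00000015619, GRCm38 chromosome 2, 9857078 to 9890034, minus strand) was 2.91, 0.88 and 2.23 FPKM in Ctrl-IgG replicates 1 to 3 and 3.24, 3.27 and 2.77 FPKM in those of aCSF1R. With interleukin-10 it was 8.91, 9.69 and 28.8 FPKM (IL-10-Fc) and 10.35, 26.25 and 22.57 FPKM (BF10). The lowest library with interleukin-10 was thus above the highest without it, and the mean rose from 2.55 to 17.8 FPKM (6 libraries each), 6.97-fold. In the whole table of tested genes 67.5% had a lower mean than Gata3 with interleukin-10 and 24.8% without it. On the log2(FPKM + 1) scale the rise was 2.30 (SE 0.33, limma adjusted p 0.000239), beside a median of -0.30 over all tested genes, which was -0.02 with median-of-ratios size factors. Of the tested genes, 43.2% were called in this comparison, 14.6% were called higher with interleukin-10, and 9.73% had all 6 libraries with interleukin-10 above the other 6. Without BF10 replicate 3, which holds Y-linked transcripts, the log2 fold change of Gata3 was 2.23 (SE 0.36), and without the 4 libraries of high FPKM sum it was 2.85 (SE 0.12).

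Within the libraries with interleukin-10, the level of Gata3 was lower where the FPKM sum was high. It was 8.91 to 10.35 FPKM in the 3 of high sum and 22.57 to 28.8 FPKM in the other 3. Ctrl-IgG replicate 2, the library of high sum among the controls, held the lowest Gata3 of all 12, 0.88 FPKM. With the log2 FPKM sum as a covariate the change of Gata3 with interleukin-10 was 2.71 (limma adjusted p 3.85e-08). The titles of the libraries carry a code whose meaning the labels do not give. With interleukin-10 the codes of the 3 libraries of high sum start with 2, 2 and 4 and those of the other 3 with 6, 6 and 7, so FPKM sum and title code cannot be told apart there. With a term for title codes of 1 to 4 against 5 to 7 the change of Gata3 was 2.18 (adjusted p 0.000106).

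**Figure D2:**
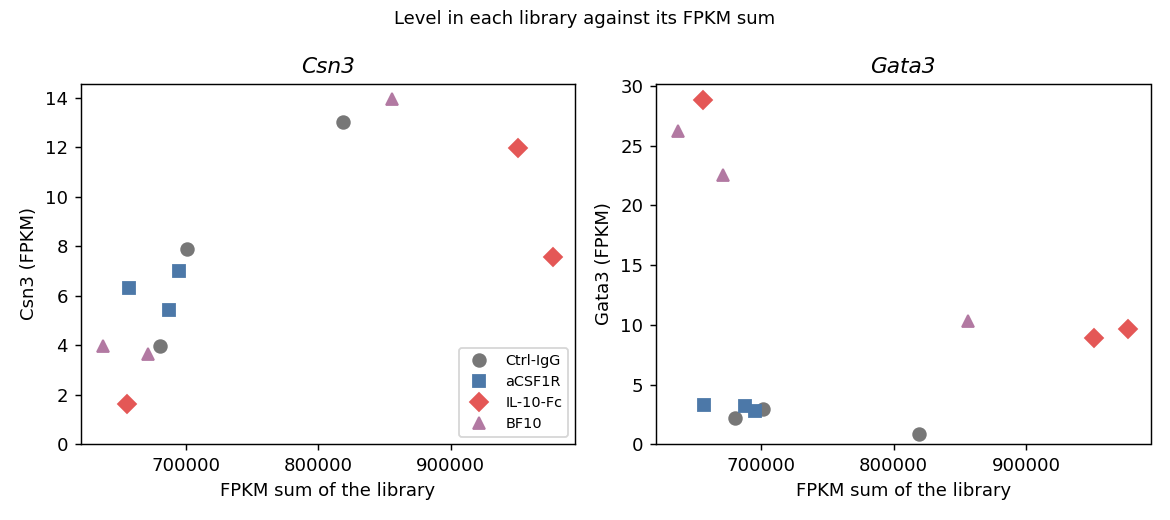
Level of Csn3 (left) and Gata3 (right) in FPKM against the FPKM sum of the library, with a point per library and the treatment group by colour and shape. The 4 libraries with a sum of 819001 or more hold Csn3 at 7.57 to 13.96 FPKM, and within each set of treatments they hold less Gata3 than the others.

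Against Ctrl-IgG, Gata3 rose in IL-10-Fc (log2 fold change 2.35, SE 0.47, limma adjusted p 0.00325) and in BF10 (2.75, SE 0.47, adjusted p 0.00176). Against aCSF1R the values were 1.84 (SE 0.47, adjusted p 0.0105) in IL-10-Fc and 2.25 (SE 0.47, adjusted p 0.00537) in BF10. Between aCSF1R and Ctrl-IgG the difference was 0.51 (SE 0.47, adjusted p 0.958), and between BF10 and IL-10-Fc it was 0.40 (SE 0.47, adjusted p 0.579), neither of which passed the test.

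Gata3 overlaps other genes, and reads of genes on the same strand can be split between them, so its level is uncertain to that extent. Whether strand was used in counting is not given in the sources used here, so reads of genes on the opposite strand may be included too. 9230102O04Rik (chromosome 2, 9883041 to 9889540, minus strand), inside the Gata3 locus and on its strand, was listed at 0 in Ctrl-IgG and was 0.15, 0.08 and 0 FPKM in aCSF1R. Its level with interleukin-10 was 5.33, 5.42 and 8.66 FPKM (IL-10-Fc) and 5.4, 7.68 and 5.44 FPKM (BF10). On the log2 scale it was higher with interleukin-10 by 2.80 (SE 0.15, limma adjusted p 5.08e-07). 4930412O13Rik (chromosome 2, 9881252 to 9883921), on the plus strand, was listed at 0 in all 6 libraries without interleukin-10. Values with interleukin-10 were 0.2, 0.73 and 4.01 FPKM (IL-10-Fc) and 1.16, 3.45 and 3.95 FPKM (BF10). Both neighbours, named after their values were seen, therefore separated the libraries the same way as Gata3. The third overlapping gene, Gm13256, was at most 0.22 FPKM.

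Elf5 (ENSMUSG00000027186, chromosome 2, 103411688 to 103450989, plus strand), the alveolar factor, was 0, 0 and 0.78 FPKM in the Ctrl-IgG libraries and 0.6, 0.77 and 0.03 FPKM in those of aCSF1R. With interleukin-10 it was 0.19, 0.11 and 0.01 FPKM (IL-10-Fc) and 0.76, 0.3 and 0.39 FPKM (BF10). The groups overlapped, and means of log2(FPKM + 1) differed by -0.049 with minus without interleukin-10 (exact permutation p = 0.818). Without interleukin-10 the 3 libraries with Elf5 at 0.6 FPKM or more were the 3 that held keratinocyte genes, and the other 3 were at most 0.03 FPKM. The part of these cells in the level was not tested.

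Foxa1 (ENSMUSG00000035451, chromosome 12, 57540628 to 57546916, minus strand), a factor that opens chromatin for hormone receptors, was 0.69, 0.95 and 0.89 FPKM in the Ctrl-IgG libraries and 0.72, 0.67 and 0.26 FPKM in those of aCSF1R. Its level with interleukin-10 was 0.44, 0.11 and 0.1 FPKM (IL-10-Fc) and 0.79, 0.81 and 0.85 FPKM (BF10). IL-10-Fc thus lay below Ctrl-IgG and below BF10 in every library, while BF10 fell inside the range of Ctrl-IgG. Over the 6 libraries with against the 6 without interleukin-10 the difference in mean log2(FPKM + 1) was -0.183 (exact permutation p = 0.297).

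Of the hormone receptors, Esr1 and Prlr were called higher with interleukin-10 and the low values of Pgr separated the same libraries. The call of Prlr is under the limit of the filter given above. Esr1, which encodes oestrogen receptor alpha (ENSMUSG00000019768, chromosome 10, 4611593 to 5005614, plus strand), was above 1 FPKM in all 12 libraries. It was 1.32, 1.51 and 1.1 FPKM in the Ctrl-IgG libraries, 1.46, 1.46 and 1.71 FPKM with aCSF1R, 3.2, 3.07 and 2.66 FPKM in IL-10-Fc and 3.2, 2.28 and 2.22 FPKM in BF10. All 6 libraries with interleukin-10 were above the other 6, with means of 2.77 and 1.43 FPKM, a ratio of 1.94. Of the tested genes 9.73% were separated in this direction. On the log2(FPKM + 1) scale the rise was 0.63 (SE 0.13, limma adjusted p 0.00267), close to the 1.5-fold limit for a call. It fell under that limit without the 4 libraries of high FPKM sum (0.54, SE 0.11, adjusted p 0.00528), without BF10 replicate 1 (0.57, adjusted p 0.0054) and with the log2 FPKM sum as a covariate (0.55, adjusted p 0.000478). With the adipocyte level described below as a covariate it was 0.52 (SE 0.20, adjusted p 0.0829) and passed neither criterion. Esr1 rose against Ctrl-IgG in IL-10-Fc (0.79, SE 0.19, adjusted p 0.00855) and in BF10 (0.62, SE 0.19, adjusted p 0.0327), and against aCSF1R in IL-10-Fc (0.64, SE 0.19, adjusted p 0.0193). BF10 minus aCSF1R was 0.48 (SE 0.19, adjusted p 0.0864). The call in BF10 against Ctrl-IgG was lost under 10 of 16 alternatives and that in IL-10-Fc against aCSF1R under 8 of 16, with the same direction in each.

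Pgr, the progesterone receptor and in the mammary gland a target of the oestrogen receptor (ENSMUSG00000031870, chromosome 9, 8899833 to 8968611, plus strand), was near 0 without interleukin-10. It was 0, 0 and 0.02 FPKM in the Ctrl-IgG libraries, 0.01, 0 and 0 FPKM with aCSF1R, 0.23, 0.16 and 0.06 FPKM in IL-10-Fc and 0.29, 0.39 and 0.23 FPKM in BF10. All 6 libraries with interleukin-10 were above the other 6, a difference of 0.283 in mean log2(FPKM + 1) (exact permutation p = 0.00216, the smallest that 6 against 6 can give). This p-value is under the limit given above for Pgr and Lalba. Among the 14167 genes that were under the filter and above 0 in at least 3 libraries, 2.82% were separated in this direction. BF10 lay at or above the highest value of IL-10-Fc, with 0.23 FPKM in both.

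Prlr, the prolactin receptor (ENSMUSG00000005268, chromosome 15, 10177238 to 10349180, plus strand), was 0, 0.01 and 0.07 FPKM in the Ctrl-IgG libraries and 0.03, 0 and 0 FPKM in those of aCSF1R. Values with interleukin-10 were 1.42, 0.46 and 0.01 FPKM (IL-10-Fc) and 1.58, 1.05 and 1.08 FPKM (BF10). The 3 BF10 libraries were above every library without interleukin-10, but IL-10-Fc replicate 3 lay among the latter. The log2 fold change with against without interleukin-10 was 0.86 (SE 0.19, limma adjusted p 0.00344), a value that depends on the pseudocount of 1 because Prlr was at or near 0 on one side. BF10 rose against Ctrl-IgG (1.12, SE 0.27, adjusted p 0.0103) and against aCSF1R (1.14, SE 0.27, adjusted p 0.00964). IL-10-Fc differed by 0.57 from Ctrl-IgG (SE 0.27, adjusted p 0.116) and by 0.60 from aCSF1R (SE 0.27, adjusted p 0.0874) and was not called. Without IL-10-Fc replicate 3 these became 0.87 (adjusted p 0.00943) and 0.90 (adjusted p 0.00678) and were called. BF10 and IL-10-Fc differed by 0.54 (SE 0.27, adjusted p 0.478). Without BF10 replicate 3 the change with interleukin-10 was 0.88 (SE 0.21), and without the 4 libraries of high FPKM sum it was 0.50 (SE 0.11), under the fold limit.

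Adipocyte genes moved with Prlr. Adipoq, the fat cell hormone adiponectin, was at most 0.64 FPKM without interleukin-10. With interleukin-10 it was 39.71, 1.16 and 2.3 FPKM (IL-10-Fc) and 29.75, 16.32 and 18.93 FPKM (BF10), so the 2 libraries with interleukin-10 and the least Prlr were also the 2 with the least Adipoq. The 8 adipocyte markers summed to 45.4 to 68.4 FPKM without and 47.0 to 587 FPKM with interleukin-10. Most of this was Fabp4, at 42.37 to 62.31 FPKM without and 30.4 to 410.62 FPKM with interleukin-10. Fabp4 was not called (limma adjusted p 0.0513). Of the 6 markers tested 4 were called higher, beside 14.6% of all tested genes. These 4 (Adipoq, Plin1, Cfd and Cidec) reached 1 FPKM in fewer than 3 libraries without interleukin-10. They entered the fit only with the help of the libraries with it. The log2 of the sum of the 8 markers was then used as a covariate, an alternative chosen after the data were seen. With it the change of Prlr was 0.28 (SE 0.16, limma adjusted p 0.239) and that of Esr1 0.52 (SE 0.20, adjusted p 0.0829), neither of them called. In the main fit their SEs were 0.19 and 0.13. The change of Gata3 was 3.04 (adjusted p 0.000655). Over all 15813 genes tested the calls went from 6832 to 3965 with this covariate. In IL-10-Fc replicates 2 and 3 the 8 markers summed to 79.5 and 47.0 FPKM, and Esr1 there was 3.07 and 2.66 FPKM. Fewer cells of a type and less RNA per cell cannot be told apart in such bulk samples.

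**Figure D3:**
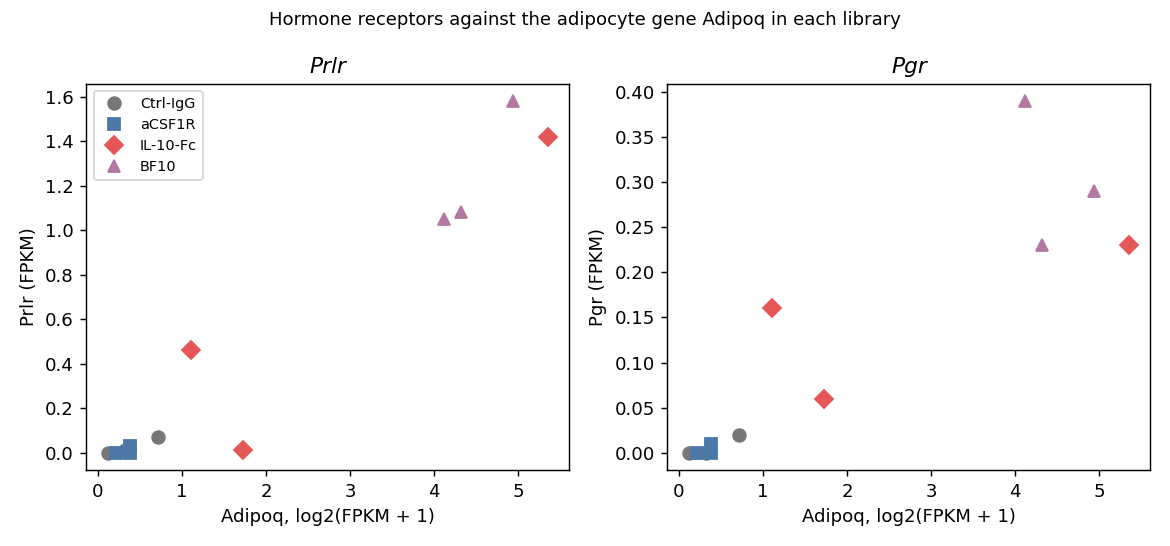
Prlr (left) and Pgr (right) in FPKM against Adipoq on a log2(FPKM + 1) scale, with a point per library and the treatment group by colour and shape. The 4 libraries with Adipoq above 16 FPKM hold Prlr at 1.05 to 1.58 FPKM, IL-10-Fc replicates 2 and 3 hold both at lower levels, and the 6 libraries without interleukin-10 have Adipoq at or below 0.64 FPKM and Prlr at or below 0.07 FPKM.

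Of the milk proteins, Csn3 was present in every library, Lalba in traces, and Wap was listed at 0. Csn3, kappa-casein (ENSMUSG00000001622, chromosome 5, 87925579 to 87932665, plus strand), was 7.89, 13.03 and 3.96 FPKM in the Ctrl-IgG libraries and 5.42, 6.33 and 6.99 FPKM in those of aCSF1R. Its level with interleukin-10 was 11.98, 7.57 and 1.64 FPKM (IL-10-Fc) and 13.96, 3.96 and 3.66 FPKM (BF10). The groups overlapped and the mean was 7.27 FPKM without and 7.13 FPKM with interleukin-10. On the log2 scale this was a difference of -0.20 (SE 0.44, limma adjusted p 0.726). Csn3 passed the test in none of the 7 comparisons.

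The spread of Csn3 lay within the groups, with the highest values where the FPKM sum was high. It was 7.57 to 13.96 FPKM in the 4 libraries of high sum and 1.64 to 7.89 FPKM in the other 8. Among the libraries with interleukin-10 alone, the 3 of high sum held 7.57 to 13.96 FPKM and the other 3 at most 3.96 FPKM. Without the 4 libraries of high sum, Csn3 was called lower with interleukin-10 (log2 fold change -0.96, SE 0.21, limma adjusted p 0.00786), as it was with the log2 FPKM sum as a covariate (-0.75, adjusted p 0.00436). With the title code term, which among the libraries with interleukin-10 splits them as the FPKM sum does, the difference was -0.01 (adjusted p 0.982) and was not called. Gata3 exceeded Csn3 in 0 of 6 libraries without interleukin-10 and in 4 of 6 with it, the exceptions being IL-10-Fc replicate 1 and BF10 replicate 1. In Ctrl-IgG and in aCSF1R every Csn3 value was above every Gata3 value, in IL-10-Fc and in BF10 the 2 genes overlapped, and in each group Esr1 came below both except in IL-10-Fc, where its range of 2.66 to 3.2 FPKM overlapped with that of Csn3, and in Ctrl-IgG, where it overlapped with that of Gata3.

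The other genes of the casein cluster did not accompany Csn3. Within 300 kb of it on chromosome 5, 13 other protein-coding genes were in the table, and none exceeded 0.32 FPKM in any library. Csn1s2a and Csn1s2b, calcium-sensitive caseins, were listed at 0 in all 12. Csn2, beta-casein, was above 0 only in BF10 replicate 2, at 0.2 FPKM. Csn1s1, an alpha-casein, was above 0 in 6 libraries, all without interleukin-10, at 0.04 to 0.32 FPKM.

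Lalba, alpha-lactalbumin, which makes lactose synthase (ENSMUSG00000022991, chromosome 15, 98480400 to 98482721, minus strand), was 0, 0.06 and 0 FPKM in the Ctrl-IgG libraries and 0.05, 0 and 0 FPKM in those of aCSF1R. Values with interleukin-10 were 0.21, 0.18 and 0.1 FPKM (IL-10-Fc) and 0.41, 0.17 and 0.12 FPKM (BF10). All 6 libraries with interleukin-10 were above the other 6, a difference of 0.23 in mean log2(FPKM + 1) (exact permutation p = 0.00216). So were 2.82% of the 14167 genes that were under the filter and above 0 in at least 3 libraries. The p-value of Lalba is under the limit given above. Of the tested genes 3.2% had a lower mean than Lalba with interleukin-10. Within each of IL-10-Fc and BF10 the lowest value was in a library without a high FPKM sum. Wap, whey acidic protein (ENSMUSG00000000381, chromosome 11, 6635482 to 6638637, minus strand), was listed at 0 in all 12 libraries and was not tested.

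**Figure D4:**
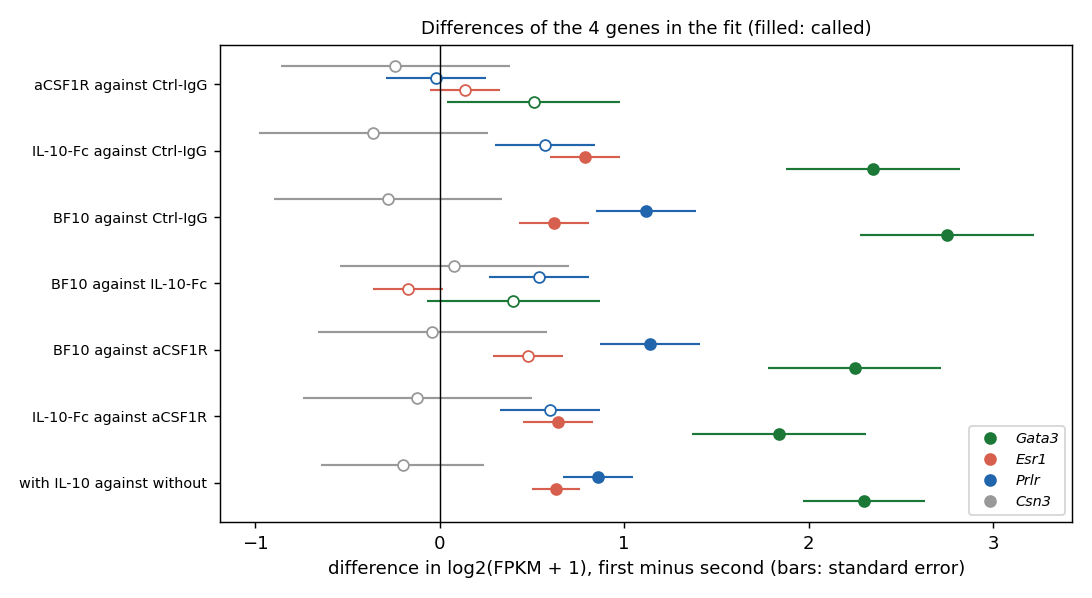
Difference in log2(FPKM + 1) with its standard error (x axis, first group minus second) of the 4 genes in the fit, in each of 7 comparisons (y axis), with filled points where the gene was called. Gata3 is called in every comparison across interleukin-10, and no gene in aCSF1R against Ctrl-IgG or in BF10 against IL-10-Fc.

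By comparison, limma called 3 of the 4 genes in BF10 against Ctrl-IgG, where it called 24.9% of all tested genes, and 2 of 4 in IL-10-Fc against Ctrl-IgG (33.7%). It called 2 of 4 in BF10 against aCSF1R (25.0%) and 2 of 4 in IL-10-Fc against aCSF1R (42.2%), all as higher with interleukin-10. These shares of all genes count calls in either direction. Genes called higher with interleukin-10 were 1859, 1597, 1743 and 1732 of 15813, in the same order. In aCSF1R against Ctrl-IgG limma called 0 of the 4 (0.0% of all genes, with 437 at an unadjusted p under 0.05) and in BF10 against IL-10-Fc 0 of the 4 (0.0126%, with 828 at an unadjusted p under 0.05). In both of the latter, 0 of the 4 genes had an unadjusted p under 0.05. These comparisons share groups and are not independent of each other.

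The related lists were described in the same fit, beside a median log2 fold change of -0.30 over all genes, 14.6% of genes called higher with interleukin-10 and 28.6% called lower. A gene that reached 1 FPKM in fewer than 3 libraries without interleukin-10 entered the fit only with the help of the libraries with it, so that the counts and medians of tested genes describe the lists and carry no weight beyond that. Of 14 other milk proteins 5 were tested and 3 were called higher, 0 lower, with a median of 1.78. All 3 of the called genes entered in this way, and over the 12 milk proteins tested when every gene above 0 was fitted the median was -0.04, with 3 called higher. Ltf, the iron-binding lactoferrin of milk and neutrophil granules, rose by 3.32 (SE 0.34), from at most 0.9 FPKM to 3.59 to 22.46 FPKM. Glycam1, a mucin of milk and of the high endothelial venules of lymph nodes, rose by 2.69 (SE 0.82) with 95.35 and 49.58 FPKM in BF10 replicates 2 and 3 and no more than 4.83 FPKM elsewhere. Wfdc18 rose by 1.78 (SE 0.53) and was highest, 6.29 to 11.04 FPKM, in the 3 libraries with interleukin-10 and a high FPKM sum. The 9 milk proteins under the filter included the 4 caseins named above.

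Of the 8 genes of prolactin receptor signalling 7 were tested, with 3 higher, 2 lower and a median of 0.31. Jak2, the kinase at the receptor, rose by 2.59 (SE 0.23), from 15.06 to 23.46 FPKM without to 75.98 to 161.3 FPKM with interleukin-10. Socs2 (1.21, SE 0.24) and Cish (1.01, SE 0.20), feedback inhibitors that STAT5 induces, also rose. Stat5a fell by 1.36 (SE 0.40) on the log2 scale, and Socs1, another feedback inhibitor and the fifth called gene, by 0.67 (SE 0.24). In 9 of the 12 fits that leave out a single library 1 gene in place of 2 was called lower, the exceptions being those without Ctrl-IgG replicate 2, IL-10-Fc replicate 1 or BF10 replicate 1. It was also 1 with median-of-ratios size factors, with quantile normalization and with all genes above 0. Prl, prolactin itself, was above 0 in 1 library, at 0.05 FPKM. These genes also serve other cytokine receptors.

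Of 12 oestrogen and progesterone targets 8 were tested, with 5 higher, 0 lower and a median of 0.84. The chemokine Cxcl12 (1.60, SE 0.43), the growth factor Areg (1.43, SE 0.18), the receptor cofactor Nrip1 (1.3, SE 0.17) and Tnfsf11, which encodes RANKL (1.02, SE 0.23), rose most. Areg was 3.79 to 5.38 FPKM without and 8.58 to 18.59 FPKM with interleukin-10. Greb1, a direct target of the oestrogen receptor, stayed at or below 0.11 FPKM, and it was named after its values were seen.

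Luminal progenitor and alveolar genes gave 4 higher and 1 lower of 8 tested of 9, with a median of 0.46. Plet1, a surface protein of progenitors, rose by 2.85 (SE 0.38), and Lcn2, an iron-scavenging lipocalin also made by neutrophils, by 2.56 (SE 0.41). Tspan8 rose by 1.04 (SE 0.31), while Aldh1a3, a retinaldehyde dehydrogenase, fell by 1.05 (SE 0.21). Among 12 other luminal regulators 7 were tested, 2 higher and 2 lower, with a median of -0.15 (0.03 with median-of-ratios size factors). The epithelial factor Grhl2 rose by 1.91 (SE 0.23) and Trps1, a GATA-type repressor, by 1.36 (SE 0.21). The receptor Erbb3 fell by 1.41 (SE 0.20) and the T-box factor Tbx3 by 1.26 (SE 0.29). Without BF10 replicate 3 the calls in these 5 lists were 3 higher and 0 lower for milk proteins, 3 and 1 for prolactin signalling, 5 and 0 for hormone targets, 4 and 1 for progenitor genes and 2 and 2 for regulators. Without the 4 libraries of high FPKM sum they were 3 and 0, 3 and 2, 4 and 0, 3 and 1, and 2 and 2, in the same order. With the adipocyte level as a covariate they were 1 and 0, 2 and 1, 2 and 0, 2 and 1, and 2 and 1. Of the genes called higher, 2 of 5 hormone targets (Tnfsf11 and Myb), 2 of 4 progenitor genes (Tspan8 and Plet1) and 1 of 2 regulators (Grhl2) entered the fit only with the help of the libraries with interleukin-10, and the converse held for Aldh1a3 and Erbb3 among those called lower. With every gene above 0 in the fit the medians were 0.16 for prolactin signalling, 0.25 for hormone targets, 0.14 for progenitor genes and -0.12 for regulators.

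**Figure D5:**
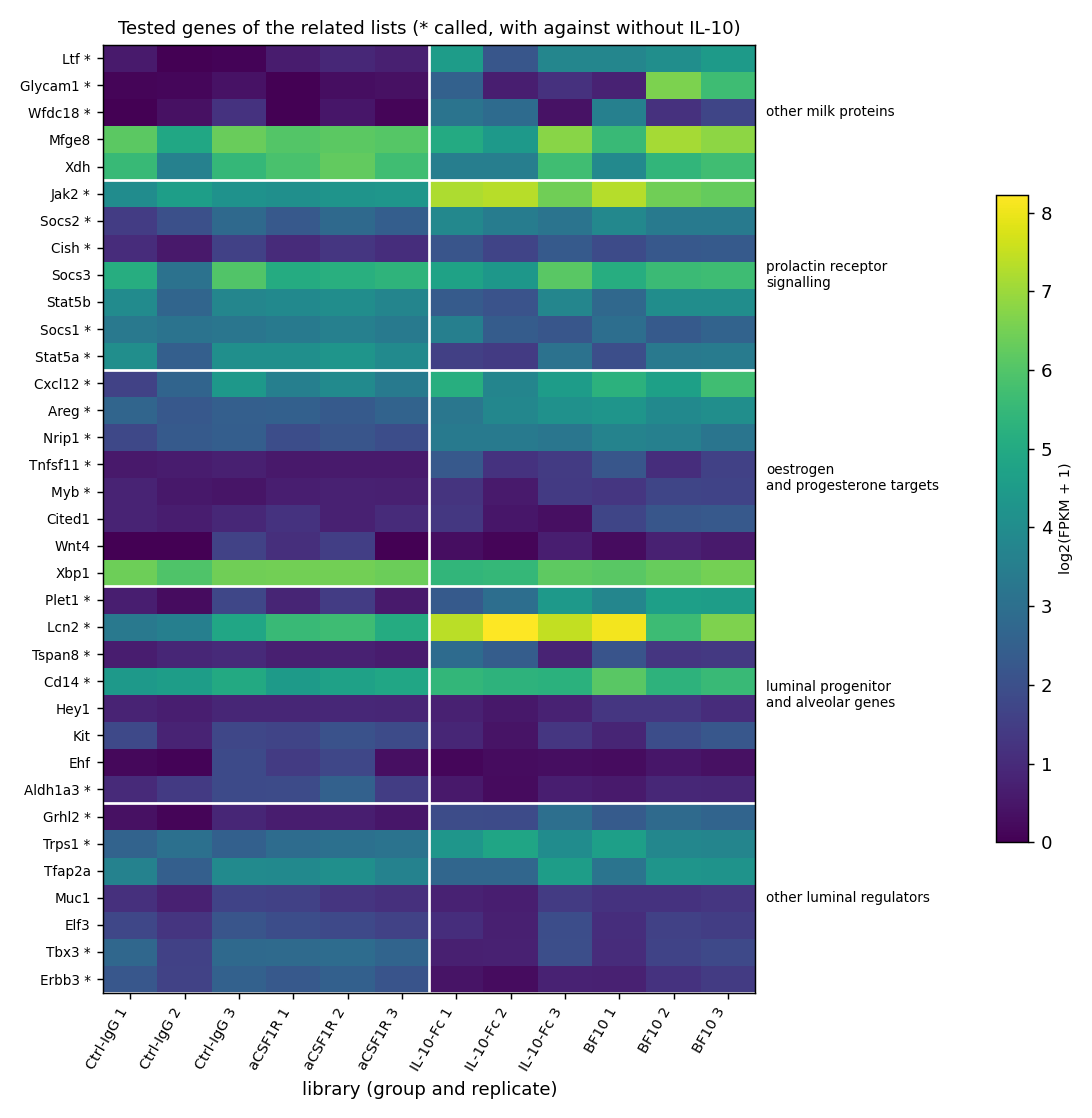
Level of the tested genes of the 5 related lists (rows, with * where the gene was called) in each library (columns) on a log2(FPKM + 1) colour scale, with a vertical line between the treatments without (left) and with interleukin-10 (right). Jak2, Ltf, Plet1 and Grhl2 are higher on the right in every library, and Erbb3 lower.

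Markers of other cell types moved between the same 6 and 6 libraries, and their part in the levels above was not tested. Simple epithelial genes, which luminal cells share with many other epithelia, gave 8 higher and 0 lower of 9 tested of 10, with a median of 4.30, and summed to 1.36 to 20.5 FPKM without and 615 to 1610 FPKM with interleukin-10. Of these 8, 6 had reached 1 FPKM in fewer than 3 libraries without interleukin-10. The keratins Krt18 (8.70, SE 0.19), Krt8 (8.28, SE 0.28), Krt7 (7.04, SE 0.20) and Krt19 (4.44, SE 0.26) led them. Of 9 mammary basal and myoepithelial genes 8 were tested and 2 rose, Cnn1 by 1.60 (SE 0.19) and Acta2 by 1.5 (SE 0.34). Krt17 (-2.49, SE 1.07), Krt5 (-2.43, SE 1.37) and Trp63 (-0.71, SE 0.39) were lower with interleukin-10 and not called. Krt14 (0.17, SE 1.69), Mylk (0.23, SE 0.30) and Myh11 (0.41, SE 0.28) were not called either. In this list 4 were called higher without the 4 libraries of high FPKM sum and 1 with the adipocyte level as a covariate. For Gata3, the T cell markers summed to 51.5 to 86.6 FPKM without and 73.3 to 218 FPKM with interleukin-10. Most of this was Thy1, at 30.85 to 60.8 FPKM without and 50.3 to 162.04 FPKM with interleukin-10. Of 8 tested 3 were called higher, Thy1 (0.99, SE 0.27), Cd3g (0.96, SE 0.19) and Cd8b1 (0.63, SE 0.21). Not called were Cd8a (0.59), Cd3e (0.51), Lck (0.35), Cd3d (0.09) and Cd247 (-0.22). Cd4 stayed under the filter, at 5.05 and 4.26 FPKM in BF10 replicates 2 and 3 and at most 0.6 FPKM elsewhere. Without interleukin-10 the type 2 lymphocyte markers summed to 79.9 to 112 FPKM, mostly from Il1rl1, and with it to 2.97 to 28.9 FPKM. Il1rl1 fell by 4.45 (SE 0.49) and was 27.06 FPKM in BF10 replicate 3. Il5 and Il13, the cytokines that define these cells, were at most 0.39 and 0.14 FPKM in any library. Under the alternatives, between 1 (rescaled to TPM) and 5 (median-of-ratios size factors) T cell markers were called, all higher.

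Fibroblast genes gave 5 higher, led by Lum (3.88, SE 0.61), Col1a1 (2.48, SE 0.57), Col3a1 (2.32, SE 0.34) and Col1a2 (2.07, SE 0.52), and 1 lower of 6, and endothelial genes 1 higher of 6 (Emcn, 1.15, SE 0.34). Skeletal muscle genes gave 4 lower of 7 (Acta1, Myh1, Mylpf and Ckm), with sums of 34.5 to 1030 FPKM without and 22.4 to 132 FPKM with interleukin-10. The calls of these 4 muscle genes and of Emcn were lost with the adipocyte level as a covariate. Of 11 keratinocyte genes 10 were tested and Sbsn was called lower (-2.97, SE 0.55), with a median of -3.04 over the list. This count turned on single libraries, with 9 called lower when aCSF1R replicate 3 was left out, 8 when Ctrl-IgG replicate 2 was, and 3 when Ctrl-IgG replicate 1 was. Of 10 salivary gland genes 2 were tested and Aqp5 rose by 1.22 (SE 0.21), while the list summed to at most 8.03 FPKM in any library. The defining saliva genes Bpifa2, Smr3a and Dcpp1 were at most 0.2 FPKM. Of the 6 transcripts that differ by sex or strain 4 were tested, with H2-Ea and Xist higher and Eif2s3y and Ddx3y lower. Aqp5, H2-Ea, Xist and the Cnn1 named above entered the fit only with the help of the libraries with interleukin-10. The converse held for Acta1, Myh1, Ckm, Eif2s3y and Ddx3y among those called lower.

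The genes whose pattern over the 12 libraries was most like each member were found by the mean absolute difference of values scaled to SD 1. For Gata3 they were H2-K2 (0.081 SD), Podnl1 (0.10) and Prdm11 (0.115). For Esr1 they were Trps1 (0.141), Insl6 (0.154) and Pla2g4c (0.16). For Prlr they were Fgg (0.091), a fibrinogen chain, and the fat cell hormones Adipoq (0.161) and Retn (0.173). For Csn3 they were Adal (0.257), Pcna-ps2 (0.264) and Zfp637 (0.30), the least alike of the 4 sets, and Pcna-ps2 is a pseudogene whose reads can belong to its parent gene.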

How the data were processed

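Tumour RNA of 12 libraries (4 groups of 3, from the treatment label) was prepared by the authors with a stranded mRNA kit and sequenced on a NextSeq instrument. The submitters' processing notes name STAR 2.7.5a, RSEM 1.3.3, DESeq2 1.30.0 and the builds mm10 and GRCm38. The authors deposited FPKM values for 55401 genes, to 2 decimals, and their sum differs between libraries. Counts were not used, so single values have no counting interval. The authors also deposited 4 tables of their own DESeq2 comparisons (fold changes and p-values), which were not used.

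The 15813 genes that reached 1 FPKM in 3 or more libraries were fitted as log2(FPKM + 1), a scale that understates the change of low genes, with limma 3.58.1 in R 4.3.3, all 12 libraries in 1 model with an intensity trend, in 7 comparisons. p-values were Benjamini-Hochberg adjusted over all 15813 genes, and calls also needed a 1.5-fold change (threshold 0.05). The steps were tested on simulated data. Members under the filter were compared by two-sided exact permutation tests (scipy 1.17.1). No 2 libraries held identical values (0 pairs).

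Positions came from GENCODE M21 (GRCm38), which held 55141 of the 55401 gene identifiers in the expression table, and promoters from RefSeq. Members and lists were chosen with earlier results of these data known. Named were all 9 members, up to 4 called genes of each list with the largest change between treatments with and without interleukin-10, and the 3 genes most alike in pattern to each member in the fit, without predicted genes. Alternatives covered the pseudocount, filter, scaling, covariates, libraries left out and a term that separates title codes starting with 1 to 4 from those starting with 5 to 7. 1 gene of the luminal regulator list is not reported here.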

Additional observations from a re-analysis of the deposited data

Results flagged for a closer look

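Values of Foxa1 lay on opposite sides in a pair of comparisons. All 3 BF10 libraries (0.79 to 0.85 FPKM) were above all 3 aCSF1R libraries (0.26 to 0.72 FPKM), with means that differed by 0.267 FPKM, whereas all 3 IL-10-Fc libraries (0.1 to 0.44 FPKM) were below all 3 Ctrl-IgG libraries (0.69 to 0.95 FPKM). The difference between these comparisons was not tested, the 6 libraries with interleukin-10 did not differ from the 6 without it past the threshold (exact permutation p = 0.297), and every value was below 1 FPKM. The share of all genes whose groups of 3 lie apart in this way was not counted, so the separation carries no weight of its own.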

How the results depend on the processing

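No paired analysis was possible because the labels give no replicate numbers, and of the first numbers of the title codes, whose meaning is not given, any pair of groups shares at most 1 (6, found in BF10 replicate 2 and in the libraries numbered 3 of aCSF1R and IL-10-Fc), too few for a block. The fit of only the groups compared does not apply to the comparison of treatments with and without interleukin-10, which uses all 4. Of 282 values of single genes under alternatives, 245 kept their direction and their side of the threshold, 28 lost a call, 5 gained 1 and 4 reversed. The count of members called fell to 1 when 10289 genes averaging 5 FPKM or more were fitted, where only Gata3 and Csn3 were tested, in all 5 comparisons across interleukin-10. With the adipocyte level as a covariate, chosen after the data were seen, it was 1 in BF10 against Ctrl-IgG, BF10 against aCSF1R, IL-10-Fc against aCSF1R and with against without interleukin-10. It was 1 in IL-10-Fc against Ctrl-IgG in the fit of only these groups, and 0 in IL-10-Fc against aCSF1R after rescaling to TPM. With each library left out in turn, IL-10-Fc against aCSF1R gave 1 to 3 called. For Elf5 the difference between treatments with and without interleukin-10 reversed to 0.116 with a pseudocount of 0.1 and to 0.039 with median-of-ratios size factors, and ranged from -0.142 to 0.039 with single libraries left out. For Csn3 it reversed to 0.12 with median-of-ratios size factors and 0.10 with quantile normalization, and ranged from -0.47 to 0.13 with single libraries left out, where it reversed without IL-10-Fc replicate 3. For Prlr in IL-10-Fc against Ctrl-IgG it reversed to -0.03 without the 4 libraries of the highest FPKM sum, which leaves only IL-10-Fc replicate 3 in that group, assumed to vary like the others. The exact permutation p of Pgr and Lalba, which carries no weight of its own as said above, lay between 0.00216 and 0.00433 under the alternatives. Calls over all genes with and without interleukin-10 were 2309 higher and 4523 lower, and 3196 higher and 3287 lower with median-of-ratios size factors. Cause was not tested for any of these shifts. The FPKM values carry no counts, so levels below 1 FPKM have a precision that is not known.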
